A study of Mus musculus with 12 samples.

Results

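Mup20, Mup6 and Socs2 are 3 liver genes that growth hormone is known to act on through the transcription factor STAT5. They were picked by symbol from the 2 deposited tables of differential expression: Mup20 from the comparison of a high-fat diet (HFD) with chow, and Mup6 and Socs2 from the comparison of pregnenolone-16alpha-carbonitrile (PCN) with vehicle. The tables hold 336 and 33 genes, 366 different genes in all, and each member is a gene of 1 table. The authors kept genes by their own test and by the size of the change, so the values of these contrasts chose the members and are given here as a description.

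Liver RNA of 12 mice was sequenced, 3 in each of 4 groups. Every mouse was C57BL/6N and deficient in PXR, the pregnane X receptor, a nuclear receptor that switches on drug-metabolizing enzymes, so no group in the study carried the receptor for which PCN is the standard rodent ligand. Mice of all 4 groups ate their diet, chow or HFD, for 18 weeks from 6 weeks of age. Besides the chow and HFD groups, there were HFD-fed mice injected intraperitoneally once a day for 4 days. They got either a vehicle of 30% DMSO in corn oil or PCN at 50 mg/kg. The labels name each mouse by a number and give neither the sex of the animals nor the way in which PXR was lost.

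Growth hormone leaves the pituitary in pulses and binds its receptor on hepatocytes, the kinase JAK2 on that receptor phosphorylates STAT5, and STAT5 moves to the nucleus and binds DNA. Pulses are sharper in male than in female rodents, and many liver genes differ between the sexes through this pathway. The major urinary proteins (Mup) are lipocalins that liver secretes and that carry pheromones into urine, with higher output in males. Mup20 encodes darcin, a male scent protein to which females are attracted. Socs2 encodes a suppressor of cytokine signalling that STAT5 induces and that dampens the growth hormone receptor, a feedback inhibitor of the pathway.

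The Mup genes are so alike that the reads of one can fit another, and the sequences show how far the counts of Mup20 and Mup6 are their own. In GENCODE M21 on GRCm38, 22 protein-coding Mup genes and 26 Mup pseudogenes lie between positions 59956804 and 62150863 of chromosome 4, a stretch of 2.19 Mb, and 1 Mup gene lies elsewhere. Mup6 (ENSMUSG00000078689) lies on the plus strand at chr4:59964294-60007274, with 3 transcripts and 1000 exonic bases. Mup20 (ENSMUSG00000078672) lies 2.04 Mb further on at chr4:62050234-62054158, on the minus strand, with 1 transcript and 928 exonic bases. Socs2 (ENSMUSG00000020027) lies on another chromosome, at chr10:95385362-95417180 on the minus strand, with 14 transcripts that cover 9531 exonic bases. No other annotated gene overlaps any of the 3.

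The stretch below sets the nearest copy of Mup20, the unprocessed pseudogene Mup-ps19, beside Mup6. It was chosen as the 75 bases, aligned without gaps, at which Mup6 differs most from Mup20. It holds 75 bases that face bases 443 to 517 of the Mup20 coding sequence, from the GENCODE M21 transcripts, 5′ to 3′ in the sense of each gene. Capitals mark bases that differ from Mup20.
Mup20: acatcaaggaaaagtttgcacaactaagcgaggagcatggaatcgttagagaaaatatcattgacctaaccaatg
Mup6: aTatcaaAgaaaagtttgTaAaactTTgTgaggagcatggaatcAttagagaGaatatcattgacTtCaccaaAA
Mup-ps19: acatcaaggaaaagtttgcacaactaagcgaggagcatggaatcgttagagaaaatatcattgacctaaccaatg
Mup6 differs from Mup20 at 13 of these bases and Mup-ps19 at 0. By that choice 13 is the most in any such stretch, and over the aligned coding sequences 56 of 546 columns differ between Mup20 and Mup6. Over the 519 bases of Mup-ps19 that face the Mup20 coding sequence, 0 differ. Gaps were not counted, and the match is not unbroken, since 83.6% of the 75-base stretches of Mup-ps19 occur in Mup20. Aligned to the other 21 coding sequences of the family, Mup20 was identical at a median of 90.66% of columns, with a range of 87.07% to 91.39%. Mup6 had a median of 89.74% and a range of 82.52% to 91.85%, with Mup4 the most similar. Mup8, another gene of the diet table, had a median of 98.71%.

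Identity decides which reads could be told apart. Of all 75-base stretches of the Mup20 transcript, 43.56% also occur in a transcript of another gene, and that gene was Mup-ps19 alone. None of the 75-base stretches of Mup6 occurs in another gene, and at 50 bases 4.0% do. Socs2 shares 3.16% of its 75-base stretches with other genes. The read length is not given in the sources used here, and at 100 bases the share for Mup20 was 38.84%. Counts of Mup20 and Mup-ps19 are therefore uncertain against each other, whereas Mup6 and Socs2 sequence is nearly all their own. Mup8 shares 79.3% of its 75-base stretches with 18 genes, and Mup-ps19 shares 83.6% with Mup20, so the counts of both are uncertain.

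**Figure D1:**
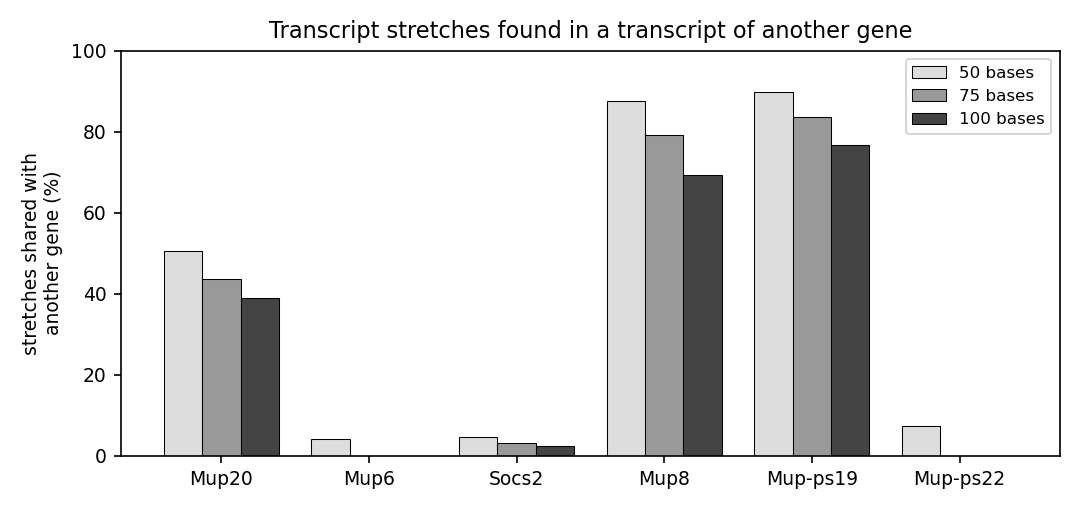
Share of stretches of 50, 75 and 100 bases (% of all stretches of that length in the transcripts of the gene, vertical axis) that also occur in a transcript of another gene, for the 3 members and the other Mup genes of the diet table. At 75 bases Mup20 stands at 43.56%, Mup6 at 0%, Socs2 at 3.16%, Mup8 at 79.3% and Mup-ps19 at 83.6%.

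The Mup6 promoter is shown because growth hormone acts on Mup genes through DNA-bound STAT5. The window holds the 250 bases before the RefSeq start site, chr4:60003231-60003480 on the plus strand, on GRCm38.p6. In GENCODE M21 the Mup6 gene starts further upstream, at position 59964294, so the window lies inside its annotated span. Capitals mark 2 matches to TTCNNNNGAA, at positions -240 to -231 and -219 to -210 from the start site, and 1 match to TATAAA, at -27 to -22.
Mup6 promoter: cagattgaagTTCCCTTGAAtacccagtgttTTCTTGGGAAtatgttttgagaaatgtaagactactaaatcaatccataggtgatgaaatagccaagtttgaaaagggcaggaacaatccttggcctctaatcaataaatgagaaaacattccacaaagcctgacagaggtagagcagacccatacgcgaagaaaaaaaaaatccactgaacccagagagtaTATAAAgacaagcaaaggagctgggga
The STAT5 consensus TTCNNNGAA was not found in the 250-base RefSeq window of Mup6, nor in those of the other 13 Mup genes with an entry. It is palindromic in its fixed letters and so reads alike on both strands, and 7.02% of 32851 promoter windows hold it. The spacing with 1 more base, TTCNNNNGAA, was searched after the letters had been read. It occurs in 5.85% of all windows and in 5 of the 14 Mup windows, those of Mup4, Mup6, Mup7, Mup11 and Mup14. TATAAA, searched on both strands and sharing no base with the other motif in Mup6, occurs in 12.4% of all windows and in Mup4 and Mup6 among the Mup genes. Mup4 was the closest to Mup6 over the promoter, identical at 90.87% of aligned columns, and the others lay between 39.14% and 78.95%. A match to letters is not a bound site, and no binding was measured. Of the 3 members, 1 (Mup6) matched the table of promoters.

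Values below are normalized counts, the reads of a gene divided by the authors' size factor for that mouse. The size factors, which the deposited means give back to within 0.0051 counts, lay between 0.8286 and 1.1372 for diet and between 0.7373 and 1.2576 for PCN. The listed genes together gave each diet mouse between 547431 and 920106 reads and each injected mouse between 34989 and 103036, and total library sizes are unknown. Of the liver markers, 0 of 8 hepatocyte genes were among the selected genes of either table, so the labelled tissue could not be checked on them. The authors' test called 0.861% of about 24980 tested genes higher and 0.484% lower on HFD, and 0.0672% higher and 0.0395% lower of about 25300 genes with PCN. A call here means an adjusted p under 0.05 together with a deposited log2 fold change of 0.6 or more in size, the smallest that either table holds. Groups did not overlap in 334 of the 336 diet genes and in 33 of the 33 PCN genes, so a gap between groups is a trait of the selection and not of the members.

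Mup20 RNA was lower on HFD than on chow. The chow mice had 9722, 13836 and 10681 reads (mice 670, 695 and 707), and the HFD mice had 7042, 5239 and 7491 (mice 659, 669 and 696). Scaled by the size factors these were 9499, 13282 and 12891 on chow and 6364, 5639 and 6587 on HFD. All 3 HFD mice lay below all 3 chow mice, as groups were apart in 334 of the 336 genes, and chow mouse 670 was the lowest of its group. The mean was 11891 ± 2081 (SD, n = 3) on chow and 6197 ± 495 (SD, n = 3) on HFD, a level 1.92-fold lower. On the log2 scale the ratio of means was -0.94 with a standard error of 0.17. Standard errors beside ratios of means, here and below, are of the difference in mean log2(normalized count + 1) between groups.

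The spread between mice was larger than counting error could give. The coefficient of variation of Mup20 between mice was 17.5% on chow and 7.99% on HFD, whereas the counting error of a single mouse was 0.85% to 1.38%. In the authors' deposited table Mup20 has a log2 fold change of -0.86 with a standard error of 0.16, a p of 4.11e-08 and a DESeq2 adjusted p of 1.83e-05, by which it was chosen; 0.484% of tested genes were called lower. Among the 121 lower genes of that table, 68 had a larger ratio than Mup20 and 21 a smaller adjusted p. The last lower gene inside the limit was Fbxo30, with an adjusted p of 0.04356 in the authors' deposited table, and the rows held give none outside it. Scaled by factors computed over the selected genes, the log2 ratio of Mup20 was -1.58 (TMM) or -1.59 (DESeq2 factors), because such factors centre on genes chosen for having changed.

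**Figure D2:**
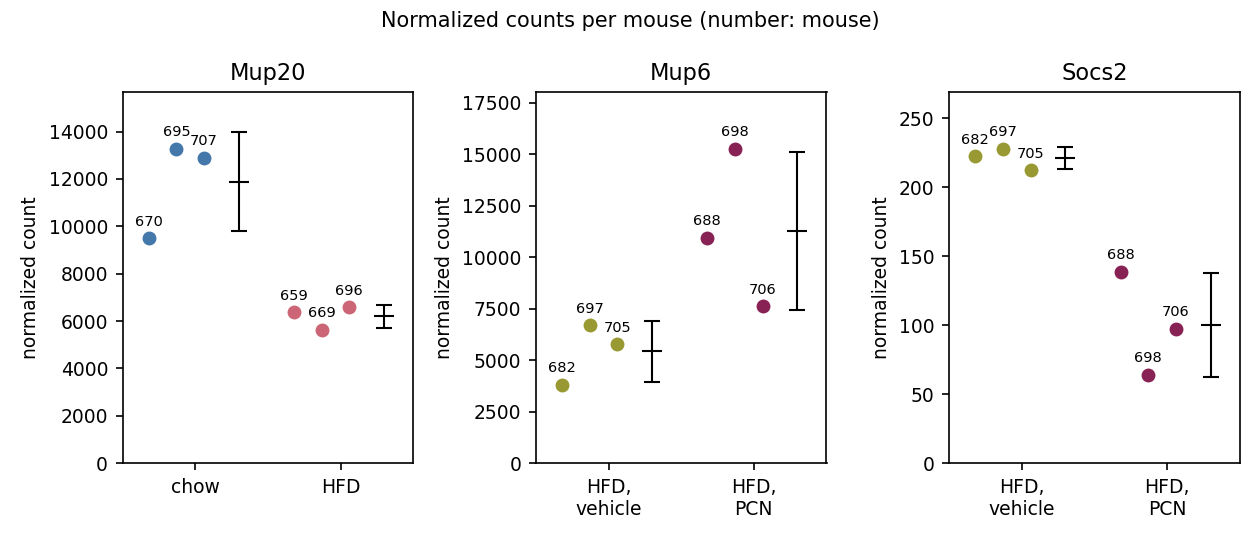
Normalized counts (vertical axes, linear from 0) of Mup20 in chow and HFD mice and of Mup6 and Socs2 in HFD mice given vehicle or PCN; points are single mice with their numbers, and the bar to the right of each group is the mean ± SD of 3 mice. Groups do not overlap in any panel, nor in 334 of 336 and 33 of 33 genes of the tables, and PCN mouse 698 holds the highest Mup6 and the lowest Socs2 value.

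Mup-ps19, the pseudogene nearest to Mup20 in sequence, was lower on HFD as well. It lies at chr4:61957149-61959911 on GRCm38. Its normalized counts were 683, 855 and 817 on chow and 449, 481 and 463 on HFD, in the order of mice above. The groups did not overlap, and the level was 1.69-fold lower (log2 ratio -0.76), with an adjusted p of 0.0005349 in the authors' deposited table. In single mice the Mup-ps19 reads came to 6.34% to 7.19% of the Mup20 reads on chow and to 7.04% to 8.53% on HFD. These ranges overlap, at the values of chow mouse 670 and HFD mice 659 and 696. How many of its reads came from Mup20 RNA was not tested.

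Mup8 and Mup-ps22 were lower on HFD too, and their size leaned on chow mouse 695. Mup8 (chr4:60218621-60222599), another urinary protein gene, had normalized counts of 119, 357 and 62.8 on chow and 52.4, 48.4 and 35.2 on HFD. Its level was 3.96-fold lower, with a log2 ratio of -1.99 and a standard error of 0.75; the adjusted p in the authors' deposited table was 0.01017. Without chow mouse 695, which held the highest count, the level of Mup8 was 2.01-fold lower.

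Mup-ps22, a processed pseudogene of 243 bases on chromosome 11 (chr11:55123695-55123937), had 523, 1042 and 577 normalized counts on chow and 324, 378 and 348 on HFD. The level was 2.04-fold lower, with an adjusted p of 0.009915 in the authors' deposited table, and without chow mouse 695 the log2 ratio moved from -1.03 to -0.65. With all mice, groups did not overlap in these Mup genes, nor in 334 of 336 genes of the table. Per kilobase of exon, Mup20 was the most abundant of them, with 12813 normalized counts per kb on chow and 6677.5 on HFD, against 182 and 46.0 for Mup8. Apart from Mup20, 1 of the 20 other Mup genes of the family list (members left out) was lower in the diet table, Mup8 (5.0%, beside 0.484% of all tested genes), and 0 of 20 were in the PCN table (beside 0.0672% higher and 0.0395% lower). A gene outside the tables did not pass the authors' selection, which a fold under the limit is enough to miss, or is not analysed here, and no level of it can be given. Mup6 in the chow and HFD mice and Mup20 in the injected mice are such cases.

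**Figure D3:**
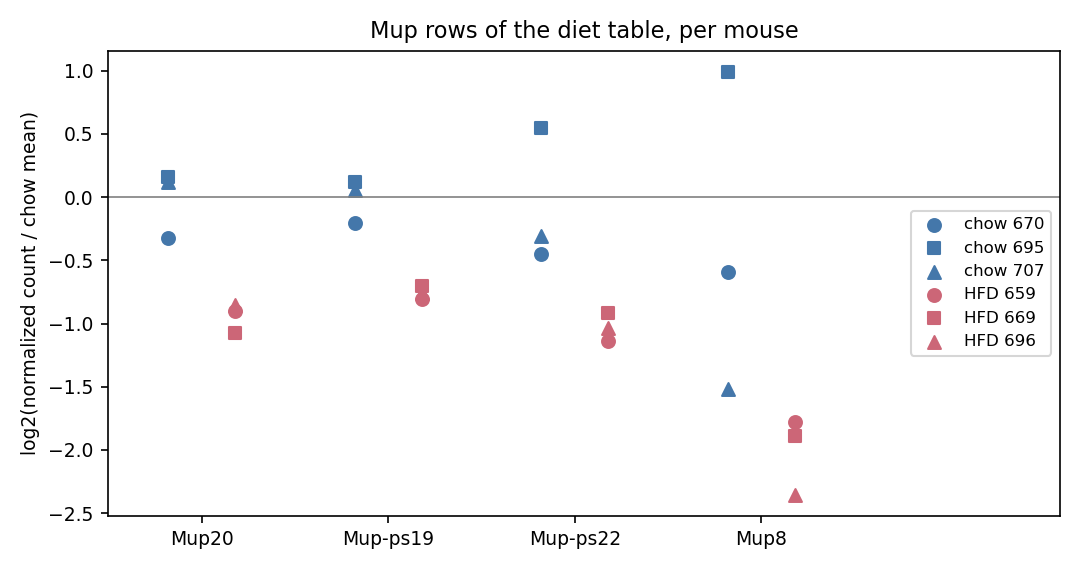
Log2 of the normalized count over the chow mean (vertical axis) for the 4 Mup entries of the diet table, with 1 symbol per mouse, chow in blue and HFD in red. The HFD mice lie below every chow mouse for each gene, and chow mouse 695 is the highest, by most for Mup8.

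Mup6, a urinary protein gene at the far end of the cluster from Mup20, was higher in HFD mice given PCN than in those given vehicle. The vehicle mice had 2811, 6661 and 7278 reads (mice 682, 697 and 705) and the PCN mice 12868, 12635 and 8851 (mice 688, 698 and 706). Normalized, these were 3813, 6687 and 5787 with vehicle and 10959, 15276 and 7618 with PCN. The lowest PCN mouse, 706, lay above the highest vehicle mouse, 697, and the groups were not far apart. The means were 5429 ± 1470.4 (SD, n = 3) and 11284 ± 3839 (SD, n = 3), a level 2.08-fold higher. The log2 ratio of means was 1.06 with a standard error of 0.38.

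Mup6 varied within both groups by more than counting error, which was 0.88% to 1.89%. Its coefficient of variation was 27.1% with vehicle, the median of the 33 genes. With PCN it was 34.0%, beside a median of 16.8%, and 5 of the 33 genes had a higher one. In the authors' deposited table Mup6 has a log2 fold change of 0.72 with a standard error of 0.17, a p of 2.99e-05 and a DESeq2 adjusted p of 0.03099, by which it was chosen; 0.0672% of tested genes were called higher. Among the 21 higher genes 9 had a larger ratio and 12 a smaller adjusted p. The limit lay between Tat, a tyrosine-degrading enzyme, at 0.03326 and Ciart, a clock repressor, at 0.05703 in the authors' deposited table. With DESeq2 factors computed over the 33 selected genes the log2 ratio was 0.41, and with those factors and with TMM the groups overlapped, whereas with raw reads they did not. Of the macrophage markers 1 of 10, the scavenger receptor Cd163, was in the PCN table, at 503 to 690 normalized counts with vehicle and 938 to 1286 with PCN. Markers of stellate cells, lymphocytes, endothelial cells and cholangiocytes were not among its genes, and the part of a shift in cell types in the Mup6 difference was not tested.

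Socs2 RNA was lower with PCN than with vehicle. The vehicle mice had 164, 227 and 267 reads and the PCN mice 163, 53 and 113, in the order of mice given for Mup6. Normalized, these were 222, 228 and 212 with vehicle and 139, 64.1 and 97.3 with PCN. The vehicle mice were nearly level and the PCN mice were spread below them, with mouse 688 the highest and mouse 698 the lowest. In raw reads the nearest mice of the 2 groups, vehicle 682 and PCN 688, differed by 1 read. The means were 221 ± 7.91 (SD, n = 3) and 100.1 ± 37.4 (SD, n = 3), a level 2.21-fold lower, with a log2 ratio of -1.14 and a standard error of 0.32.

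Socs2 varied little among vehicle mice and much among PCN mice. Its coefficient of variation was 3.58% with vehicle, where counting error of a single mouse was 6.12% to 7.81%, and 37.4% with PCN, where counting error was 7.83% to 13.7%. Of the 33 genes 1 had a lower coefficient with vehicle and 2 had a higher one with PCN, beside medians of 27.1% and 16.8%. The PCN mice thus spread by more than counting error and the vehicle mice by less. In the authors' deposited table Socs2 has a log2 fold change of -0.75 with a standard error of 0.17, a p of 1.54e-05 and a DESeq2 adjusted p of 0.02166, by which it was chosen; 0.0395% of tested genes were called lower. Among the 12 lower genes 3 had a larger ratio and 5 a smaller adjusted p. The limit lay between Cyp2a4 at 0.03099 and Nrep at 0.07133 in the authors' deposited table. With DESeq2 factors computed over the selected genes the log2 ratio of Socs2 was -1.81.

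Mup6 and Socs2 can also be set against each other within a mouse, where size factors cancel. Mup6 gave 17.1, 29.3 and 27.3 reads per Socs2 read in the vehicle mice and 78.9, 238 and 78.3 in the PCN mice. The groups did not overlap, and mouse 698 stood highest, having the lowest Socs2 reads of the PCN mice (53) and 12635 Mup6 reads, close to the 12868 of mouse 688. Both genes were chosen for moving in these mice, so the ratio is a description. Per kilobase of exon, Mup6 stood at 5429 normalized counts with vehicle and 11284 with PCN and Socs2 at 23.2 and 10.5, a secreted protein gene far above a feedback regulator.

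Other genes of the pathway were not among the selected genes. Of 15 genes from the growth hormone receptor to STAT5 (such as the receptor Ghr, the kinase Jak2, Stat5a, Stat5b and the suppressors Socs1, Socs3 and Cish), 0 were in either table. Of 9 other growth hormone-induced liver genes, among them Igf1, the circulating growth factor, and its carrier subunit Igfals, 0 were in either table. Beside 0.861% higher and 0.484% lower of all tested genes on HFD, and 0.0672% and 0.0395% with PCN, a count of 0 in lists of this length says nothing of the pathway. The name growth hormone targets thus rests on what is known of the 3 members. With PCN, Mup6 was 2.08-fold higher and Socs2 2.21-fold lower, so these members moved in opposite directions, and the reason was not tested. The state of STAT5 itself was not measured.

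Genes whose level in mouse liver differs by sex through growth hormone were counted in both directions. The lists were drawn up with earlier results of these data known, so the shares are a description. Of 29 male-biased genes besides Mup20, 3 were lower on HFD and 0 higher (10.3% lower, beside 0.484% of all tested genes), with a median log2 ratio of -1.53 against -0.99 for all 121 lower genes. With PCN 0 of the 29 were in the table. Gstp1, a glutathione transferase, fell 2.47-fold, from 4679 ± 718 to 1896 ± 288 (SD, n = 3 each), with an adjusted p of 1.17e-09 in the authors' deposited table. Cyp4a12a, a male fatty acid hydroxylase, fell 2.89-fold, from 1814 ± 902 to 629 ± 164 (SD, n = 3 each), with an adjusted p of 0.0009761 in the authors' deposited table. Cspg5, a proteoglycan, fell 9.52-fold, from 41.4 ± 20.6 to 4.35 ± 1.10 (SD, n = 3 each), with an adjusted p of 9.16e-05 in the authors' deposited table.

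The same chow mouse stood highest in all of them. Mouse 695 held the top chow value in 7 of 7 of the Mup and male-biased genes of the diet table, and in 34 of all 121 lower genes (28.1%). These 7 were set together after their values had been seen. Without it the log2 ratios of Gstp1, Cspg5 and Cyp4a12a were -1.22, -2.92 and -1.13, against -1.30, -3.25 and -1.53 with all mice. Leaving out the highest chow mouse cannot make groups overlap that were apart, so overlap was not examined without it. For Mup20 itself, leaving out single mice gave log2 ratios of -1.08 to -0.85. The quasi-likelihood test of edgeR, on the authors' size factors, was fitted to the listed genes only. Its Benjamini-Hochberg adjustment counted every gene the authors tested, an estimated number. By that test 0 of the 3 male-biased genes passed and 3 had an unadjusted p under 0.05. DESeq2, fitted to the same listed genes, called 3. The spread in both fits was thus estimated from genes selected for change, and neither is a re-test of all genes. Gstp1 and Cyp4a12a each have a near-identical neighbour, Gstp2 and Cyp4a12b, so their counts are uncertain.

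Of 30 female-biased genes 8 were higher on HFD, 1 was lower and the others were not in the table. That is 26.7% higher, beside 0.861% of all tested genes, and 3.33% lower, beside 0.484%. This list too was drawn up with earlier results known, so the shares are a description. The median log2 ratio was 2.30 over the listed genes with a finite ratio. Cyp2a22 went from 44.4 ± 19.0 to 615 ± 76.6 (SD, n = 3 each), a 13.9-fold rise. Cyp2a4, a steroid hydroxylase, went up 11.0-fold, from 24.6 ± 1.85 to 269.8 ± 102 (SD, n = 3 each). Their adjusted p in the authors' deposited table was 2.86e-43 and 4.14e-22. Slco1a4, an organic anion carrier, was 4.48-fold higher, at 149.9 ± 67.5 on chow and 671 ± 37.7 on HFD. Cd36, a fatty acid carrier, was 2.90-fold higher, at 1438 ± 522 and 4171 ± 1018, and Hao2, a peroxisomal oxidase, went from 1.61 ± 1.47 to 21.7 ± 1.21, which rests on few chow reads. Cyp2b13 had 0 reads in all chow mice and 46.1, 8.61 and 18.5 normalized counts in HFD mice 659, 669 and 696, against the 1.04 that a limit of 3 reads over the chow group allows. Cyp39a1, an oxysterol hydroxylase, fell 1.99-fold, from 718 ± 111 to 360.5 ± 95.4 (SD, n = 3 each). Slc22a27 and Fmo2 make up the 8. By edgeR with the authors' size factors, fitted to the listed genes only, 2 of the 8 passed (Cyp2a22 and Cyp2a4). Cyp2b13 was left out of that fit by a filter on low counts and so was not tested in it.

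**Figure D4:**
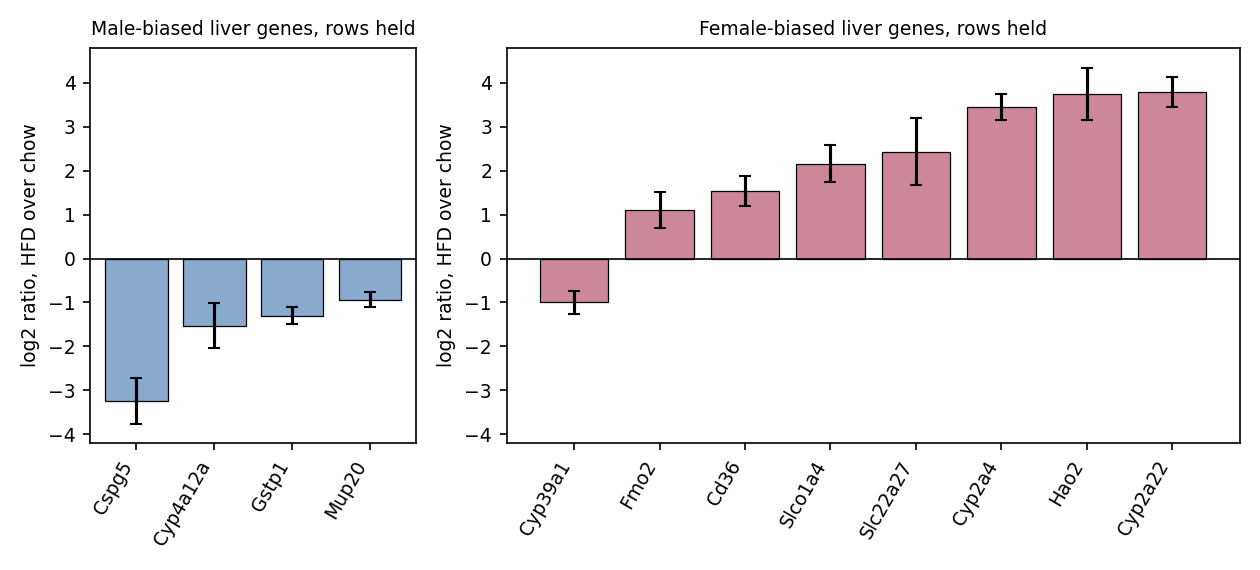
Log2 ratio of group means, HFD over chow (vertical axis), for the male-biased and female-biased liver genes of the diet table. Error bars are standard errors of the difference in mean log2(normalized count + 1), from 3 mice per group. Male-biased genes lie below 0, from -3.25 for Cspg5 to -0.94 for Mup20, and female-biased genes above 0 except Cyp39a1; Cyp2b13 is not drawn because its chow counts are 0.

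With PCN the same lists gave 1 gene. Cyp2a4 had 393, 254 and 191 normalized counts with vehicle and 115, 114 and 151 with PCN, in the order of mice given for Mup6. It was lower in all PCN mice, from 279 ± 104 to 126.7 ± 21.5 (SD, n = 3 each), a 2.21-fold fall with an adjusted p of 0.03099 in the authors' deposited table. That is 1 of 30 female-biased genes lower, 3.33%, beside 0.0395% of all tested genes. The fits that follow held only the 33 listed genes, with adjustment for the estimated number of genes tested. By edgeR with the authors' size factors its adjusted p was 1.0, with TMM 0.0325 and by DESeq2 0.812. Cyp2a4 has a near-identical neighbour, Cyp2a5, so its counts are uncertain in both tables. All these lists were drawn up with earlier results of the data known.

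Some markers of other cell types were called with the diet, and most were not in the table. Their lists were also chosen with earlier results known. Of 10 stellate cell and fibroblast markers, 4 were higher on HFD (40.0%, beside 0.861% of all tested genes) and the sum of those 4 ran from 633 to 732 normalized counts on chow and from 1671 to 3262 on HFD. Of 10 macrophage markers 2 were higher (beside the same 0.861%), summing to 12.5 to 25.3 on chow and 71.2 to 119 on HFD. Of 9 lymphocyte markers 1 was higher (Themis; 11.1%), at 13.3 to 58.6 and 306 to 372, and of 6 cholangiocyte markers 1 was lower (Cdh1; 16.7%, beside 0.484%), at 205 to 496 and 83.1 to 214. The chow and HFD groups overlapped for Cdh1. None of the 6 endothelial or 8 hepatocyte markers was in the table. In bulk liver, fewer hepatocytes and less Mup20 RNA per hepatocyte cannot be told apart, and the part of these markers in the result was not tested.

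The genes with the most similar profile over the 6 mice were named for each member. Likeness was the mean absolute difference of log2 values, each centred on its control mean. For Mup20, among 312 genes, these were Kctd15 (0.083), Plekhb1 (0.099) and Tmc7 (0.11), all lower on HFD, at 1.86-fold, 1.79-fold and 1.87-fold. For Mup6, among 25 genes, they were Cd163 (0.19), Trp53inp1, a p53-induced gene (0.29), and Ccdc151 (0.31). For Socs2, also among 25, they were the methyltransferase Inmt (0.29), the mitochondrial folate enzyme Mthfd1l (0.31) and the galactosyltransferase B4galt5 (0.35). The match was closer for Mup20 than for the genes of the PCN table, which offers fewer genes. Inmt fell from 9055 ± 1708 to 5136 ± 657 normalized counts (SD, n = 3 each), 1.76-fold, and Cd163 rose 1.99-fold.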

How the data were processed

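RNA of 12 livers was measured. Reads were processed with HISAT2, HTSeq and DESeq2 on GRCm38 (mm10), per the submitters' processing notes; their versions and settings, and strand, were not given in the sources used here. Per the file headers, the authors deposited raw counts of reads in each mouse for the listed genes, and their own test statistics. Numbers use decimal commas and starts are counted from 0, so 1 was added. Only rows selected by the authors' test are held, all with a log2 fold change of 0.6 or more in size, so that test gives the calls (adjusted p under 0.05 within that limit).

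The authors' size factors were recovered from their means, and the number of genes tested was estimated from p and adjusted p. Members got no test. The fits named next held only the listed genes, all selected for change, and their p-values were adjusted for the estimated number of genes tested. edgeR 4.0.16 quasi-likelihood with these factors, edgeR with TMM, DESeq2 1.42.0 (R 4.3.3), no filter on low counts (filterByExpr kept 330 of 336 and 33 of 33 rows), other thresholds and leaving out each mouse were alternatives. Of these fits, only edgeR with these factors and no filter was run on simulated data, in which most genes were unchanged. Ratios without chow mouse 695 for the other Mup and male-biased genes were chosen after seeing the data. P-values cover the spread between mice.

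Members and the 11 gene lists (6 of cell type markers) were chosen with earlier results of these data known. Named genes were the members, list genes held as rows (values for the 6 smallest adjusted p per direction) and the 3 nearest profiles per member on log2(normalized count + 1), leaving out genes whose mean is under 10 or whose name is predicted. Sequences were aligned with Biopython 1.88. Ratios are of group means of normalized counts. The standard errors beside them are of the difference between group means of log2(normalized count + 1) of single mice.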

Additional observations from a re-analysis of the deposited data

How the results depend on the processing

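No paired analysis was made, because the labels give mouse numbers only and state no pairing between groups. No direction reversed in any alternative run. The log2 ratio of Mup20 (-0.94) was -1.58 with TMM and -1.59 with DESeq2 factors over the selected rows, and -1.08 to -0.85 on leaving out single mice. That of Mup6 (1.06) was 0.41 with DESeq2 factors and 0.77 to 1.27 on leaving out single mice, lowest without PCN mouse 698. That of Socs2 (-1.14) was -1.65 with TMM, -1.81 with DESeq2 factors, -0.75 as deposited and -1.45 to -0.90 on leaving out single mice. By construction, factors over rows selected for change shift the median log2 ratio, by -0.64 (TMM) and -0.66 (DESeq2) for diet and by -0.49 and -0.64 for PCN. The 3 male-biased genes lower on HFD became 0 by edgeR with the authors' size factors, and edgeR without the filter or without each mouse also gave 0. They were 3 by edgeR with TMM, 3 by DESeq2 and 2 by Bonferroni adjustment. The 8 female-biased genes higher on HFD became 7 by DESeq2, 4 by Bonferroni adjustment and 2 by edgeR. Beside those 2, edgeR gave 2 with TMM, 2 without the filter and 1 to 2 on leaving out single mice (1 without each chow mouse). The 1 female-biased gene lower on HFD became 0 by Bonferroni adjustment and by edgeR, and edgeR without the filter or without each mouse also gave 0. That gene was still called by edgeR with TMM and by DESeq2. The 1 lower with PCN became 0 at an adjusted p under 0.01, by Bonferroni adjustment, edgeR and DESeq2. Beside that 0, edgeR gave 1 with TMM, 0 without the filter and 0 to 1 on leaving out single mice (1 without vehicle mouse 705). The edgeR and DESeq2 fits held only the listed genes, so they are no re-test of all genes. The cause of these losses was not tested. Low counts limit genes such as Cspg5, Hao2 and Cyp2b13. The filter left Cyp2b13 out of the edgeR fit with the authors' size factors.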
